A study of Homo sapiens with 6 samples.

Results

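NFATc2 occupancy was examined at 8 genes of the cytoskeleton and its binding partners, VIM, TMSB4X, ACTB, ACTG1, TMSB10, PFN1, CFL1 and LGALS1, in untreated THP-1 cells, a human acute myeloid leukaemia cell line with monocytic features. The data were 1 list of 32760 islands, stretches of the genome with more reads after immunoprecipitation (IP) with an antibody to NFATc2 (also called NFAT1) than predicted from Input DNA, the sheared chromatin that was not precipitated. The prediction scales each input read to 0.5618 IP reads, so an island can hold fewer IP reads than input reads. The list was called on 3 NFATc2 IP and 3 Input DNA libraries together, so it holds no value per library. Untreated cells of this 1 line were the only condition. The islands of a gene were those overlapping 10 kb on each side of its hg19 position, which was given in steps of 0.01 Mb, so that the limit of 5 kb from the gene was widened by 5 kb for this rounding. This took 9 of the 32760 islands, at 7 of the 8 genes. The genes were selected on earlier results of these same islands, so their folds, widths and reads are given as a description, with no test. The genes are known to be highly expressed in many cell types, but the list holds no expression values, and neither their expression nor markers of the cell line could be checked in it.

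Apart from LGALS1, these genes encode abundant proteins of the cell's scaffold and proteins that govern its turnover. β-actin (ACTB) and γ-actin (ACTG1) polymerise into filaments, thymosin β4 (TMSB4X) and thymosin β10 (TMSB10) hold actin monomers back from polymerising, profilin 1 (PFN1) brings monomers to growing ends, and cofilin 1 (CFL1) severs old filaments. Vimentin (VIM) forms the intermediate filaments of mesenchymal and myeloid cells, and galectin 1 (LGALS1) is a sugar-binding protein found both inside and outside such cells. NFATc2 is a transcription factor that calcineurin switches on by removing phosphates, after which it enters the nucleus and binds DNA at sites with a GGAAA core.

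The 250 bases before the start of transcription are shown for TMSB4X, VIM and PFN1, whose islands had the 3 highest folds, and for ACTG1, whose stretch held several of the motifs searched. They are from RefSeq on GRCh38.p14, read 5′ to 3′ along the gene, with the motifs found in capitals. The islands are in hg19, and no position was carried between the builds, so where an island lies relative to these bases was not determined. The regions are chrX:12974860-12975109 on the plus strand, chr10:17227991-17228240 on the plus strand, chr17:4948531-4948780 on the minus strand and chr17:81512800-81513049 on the minus strand.
TMSB4X: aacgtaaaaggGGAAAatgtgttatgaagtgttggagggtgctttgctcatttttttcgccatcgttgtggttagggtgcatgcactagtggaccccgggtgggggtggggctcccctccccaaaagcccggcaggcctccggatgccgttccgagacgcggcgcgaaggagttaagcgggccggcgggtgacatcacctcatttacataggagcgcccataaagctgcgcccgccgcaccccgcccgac
VIM: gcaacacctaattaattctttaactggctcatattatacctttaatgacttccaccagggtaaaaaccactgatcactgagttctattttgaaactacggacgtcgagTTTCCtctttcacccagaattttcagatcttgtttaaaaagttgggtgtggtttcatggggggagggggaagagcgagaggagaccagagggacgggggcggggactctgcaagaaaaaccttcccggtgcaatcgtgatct
PFN1: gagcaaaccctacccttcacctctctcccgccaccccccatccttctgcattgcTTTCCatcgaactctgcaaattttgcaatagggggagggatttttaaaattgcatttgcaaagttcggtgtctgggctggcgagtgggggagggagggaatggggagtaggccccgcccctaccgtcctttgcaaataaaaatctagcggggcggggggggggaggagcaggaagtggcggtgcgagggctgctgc
ACTG1: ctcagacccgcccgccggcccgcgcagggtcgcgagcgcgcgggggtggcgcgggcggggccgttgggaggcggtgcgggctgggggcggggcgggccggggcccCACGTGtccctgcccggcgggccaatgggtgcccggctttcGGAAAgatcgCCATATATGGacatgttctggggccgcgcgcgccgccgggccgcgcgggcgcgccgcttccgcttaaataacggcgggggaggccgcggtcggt

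The motifs searched on both strands were GGAAA, the core read by NFAT proteins, and CACGTG, the E-box read by MYC. Also searched were TATAAA, a form of the TATA box, and the CArG box, to which serum response factor binds at many actin genes. Promoter sequences were found for 6 of the 8 genes, all but ACTB and LGALS1. GGAAA lay in 5 of these 6, against 55.6% of all 35116 promoters of the same length. It was 239 bases before the start in TMSB4X, 142 in VIM, 196 in PFN1 and 104 in ACTG1, and it occurred 3 times in CFL1. TMSB10 had none of the 4 motifs as searched in this window, and other forms of the TATA box were not searched. CACGTG was found in ACTG1 only among the 6 (6.34% of all promoters), and so was the CArG box (1.16% of all promoters). In ACTG1 the E-box, GGAAA and the CArG box began 145, 104 and 94 bases before the start, without overlap. TATAAA was in 0 of the 6, against 10.7% of all promoters. A core as common as GGAAA describes these sequences and does not mark a bound site.

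All 9 islands had a log2 fold change, taken between IP reads and scaled input reads, above the median of the whole list, which was 0.39 (quartiles 0.29 and 0.53). Their own median was 0.99, and they ran from 0.67 to 2.30. Narrow islands have higher folds in this list, with a median of 1.07 for those of 1000 bp or less. Set against islands within 400 bp of its own width, the smaller TMSB4X island had a higher fold than 12.4%, the narrower CFL1 island than 50% and the wider than 93.2%, TMSB10 than 92.7% and the larger TMSB4X island than 99.0%. Above the study's threshold of 1 were 4 of the 9 islands, at TMSB4X, VIM, PFN1 and CFL1, where 1.58% of all islands were. Of the islands nearest to each gene's position, 3 of 7 were above 1. With the island of lowest p at each gene, which changes TMSB4X alone, there were 4 of 7. An island was present within 10 kb at 7 of 8 genes. Of all 200 bp positions up to the last island of each chromosome, 21.4% lie that close to one. As the genes were chosen with these islands in view, nothing is read from these shares. Intervals below are exact 95% counting intervals from the pooled reads. They leave out the spread between libraries.

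The thymosin β4 gene had the island of highest fold. TMSB4X carried 2 islands on chromosome X, 800 bp apart, which is also the smallest space between any islands in the list. The larger one, from 12994201 to 12995400, held 61 IP reads against 22 input reads. Its log2 fold change was 2.30 (interval 1.58 to 3.08), which is 4.94-fold and the fifth highest of the list, and its −log10 FDR was 20.4. The smaller one, a single bin of 200 bp from 12993201 to 12993400, held 33 IP and 37 input reads. Its log2 fold change of 0.67 had a counting interval from -0.06 to 1.38, the only one of the 9 that reached below 0, and its −log10 FDR was 1.98. The interval counts the error of the input reads too, which the p of the caller takes as fixed.
The islands of TMSB4X differed most in their input. The smaller held 185 input reads per kb, rank 106 of the list, and the larger 18.3, rank 32757 of 32760. IP reads per kb were 165 and 50.8. The island of highest fold was thus one with few input reads. Over both islands together there were 94 IP and 59 input reads, a log2 fold change of 1.504 (1.02 to 2.00).
TMSB10, the gene of thymosin β10, had a single island of 2400 bp on chromosome 2 from 85132601 to 85135000. It held 295 IP and 264 input reads, at a log2 fold change of 0.99 (0.75 to 1.24) and a −log10 FDR of 23.2. Its interval lay below that of the larger TMSB4X island without overlap. TMSB10 fell just short of the threshold of 1, and its score was 99.

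The vimentin gene had a narrow island. It covered 600 bp on chromosome 10 from 17271201 to 17271800, with 107 IP reads where the scaled input predicts 29.8 from 53 input reads. The log2 fold change was 1.85 (1.36 to 2.35), or 3.59-fold, rank 11 of all islands and rank 2 of the 925 on its chromosome. VIM was the only gene besides TMSB4X with a lower counting bound above 1. The share of all islands with such a bound was not computed, so nothing is read from this. Its IP reads per kb (178) were higher than those of the larger TMSB4X island, and so were its input reads per kb (88.3). Among the 161 islands within 400 bp of its width, 95.7% had a lower fold.

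The islands of the actin genes were the widest among those of these genes, and close to each other in fold. ACTB had 338 IP and 343 input reads in 3600 bp of chromosome 7, from 5566801 to 5570400. ACTG1 had 354 IP and 357 input reads in 5200 bp of chromosome 17, from 79474801 to 79480000. The log2 fold changes were 0.81 (0.59 to 1.03) for ACTB and 0.82 (0.60 to 1.04) for ACTG1, or 1.75-fold and 1.76-fold, with almost the same interval. Both were below the threshold of 1, yet their −log10 FDR of 18.3 and 19.6 was above the median of 10.1 for the 517 islands over it. They held 338 and 354 IP reads, where those 517 had a median of 99. The FDR depends on the number of reads as well as on the fold. Against islands within 400 bp of their own width, ACTB had a higher fold than 93.3% and ACTG1 than 98.3%.

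The genes of the actin turnover proteins lay between these. The PFN1 island was 400 bp wide, on chromosome 17 from 4851601 to 4852000, and held 203 IP and 148 input reads. Its log2 fold change was 1.29 (0.98 to 1.60) and its −log10 FDR of 25.5 was the highest of the 9. Reads were denser there than at any other island of these genes, with 508 IP and 370 input reads per kb, the latter rank 41 of the list. Among the 129 islands within 400 bp of its width the fold stood nearer the middle, higher than 61.2% of them.
CFL1 carried 2 islands on chromosome 11, 1000 bp apart. The one from 65622001 to 65624400 had 108 IP and 96 input reads, a log2 fold change of 1.00 (0.59 to 1.41) and a −log10 FDR of 8.72. The one from 65625401 to 65626400 had 65 IP and 62 input reads, at 0.90 (0.38 to 1.43). Their intervals overlap over nearly their whole length, and the reads of both together gave 0.96 (0.64 to 1.28). CFL1 (1.0018) and TMSB10 (0.9921) lay on opposite sides of the study's threshold, with a difference far smaller than either interval.

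Ordered by fold, the islands were the larger one of TMSB4X, then VIM, PFN1, CFL1 with its wider island, TMSB10, CFL1 with its narrower island, ACTG1, ACTB and the smaller one of TMSB4X. Each neighbour in this order had a counting interval that overlapped the next. The lower bounds of VIM (1.36) and of the larger TMSB4X island (1.58) lay above the upper bounds of TMSB10, ACTG1 and ACTB, of which the highest was 1.24.

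The galectin 1 gene had no island. The nearest to the position of LGALS1 on chromosome 22, at 38.07 Mb, was 1729.6 kb away, and chromosome 22 held 27 islands in all. There 1.33% of positions, counted up to the last island of the chromosome, lie within 10 kb of an island. That is below the value for every chromosome of the other 7 genes except chromosome X. Chromosome X, with 35 islands and 0.342% of positions, is where TMSB4X had both of its islands. The list holds only islands past the FDR threshold, so the reads at LGALS1 were not analysed here.

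Compared with the whole list, most islands of these genes were dense in Input DNA as well as in the IP. Input reads per kb were above the list's median of 42.1 in 7 of the 9, the exceptions being the larger islands of TMSB4X (18.3) and CFL1 (40.0). TMSB10 had 110 input reads per kb (counting interval 97.1 to 124), ACTB 95.3 (85.5 to 106) and ACTG1 68.7 (61.7 to 76.2). Each of these 3 was above at least 99.6% of the islands of like width. Reads per kb depend on width in this list, with medians of 112.5 input and 140 IP reads per kb in islands of 1000 bp or less. Against islands of like width, the input was above 93.0% at PFN1 and 70.8% at the smaller TMSB4X island, but above only 34.2% at VIM, 25.1% and 43.8% at CFL1 and 0.7% at the larger TMSB4X island. IP reads per kb ran from 45.0 at CFL1 to 508 at PFN1, all above the list's median of 31.6. Against islands of like width they were above 39.9% and 43.8% at TMSB4X, 46.6% at the narrower CFL1 island and 63.4% at VIM, and above at least 93.7% at the other 5 islands.

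Near-identical copies elsewhere in the genome can share reads with a gene. RefSeq pseudogenes were counted where their name is the gene's symbol followed by P and a number. There were 21 for ACTG1, 14 for ACTB, 10 for PFN1, 8 each for TMSB4X and CFL1, 2 for TMSB10 and 0 for VIM and LGALS1. Copies named in other ways were not counted. How the alignment treated reads with several matches is not given in the sources used here. Values at the genes with copies are uncertain to that extent, and the part of the copies in the input density was not tested.

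The islands with others within 2 Mb differed from these in reads per kb, though not all in the same direction. Compared with the median of other islands within 2 Mb, input reads per kb were 2.48 times as high at VIM, 2.25 times at ACTB, 1.98 times at ACTG1, 3.07 times at TMSB10 with 1 such island, and 9.74 times at PFN1, also with 1. At CFL1 the wider island had 0.359 times the input density of its 5 neighbours, whose median was 112 input reads per kb. IP reads per kb were 6.35 times those of the neighbours at VIM, 2.92 times at ACTB, 2.06 times at ACTG1, 4.53 times at TMSB10 and 10.6 times at PFN1. At the CFL1 islands they were 0.474 and 0.684 times those of the neighbours, below them as the input was. Widths were not matched in these ratios, and reads per kb depend on width in this list. The neighbours' median width was 5100 bp at VIM (own island 600 bp), 4500 bp at ACTB (3600 bp) and 3000 bp at ACTG1 (5200 bp). At TMSB10 it was 5600 bp (2400 bp), at PFN1 1000 bp (400 bp) and at CFL1 1000 bp (2400 and 1000 bp). The part of width in the ratios was not tested. TMSB4X had no other island within 2 Mb, and the next one on its chromosome was 11811.4 kb away.
Islands around VIM and ACTB were frequent, with 11 and 10 others within 1 Mb. There were 2 others near ACTG1 and near CFL1, 1 near TMSB10 and 0 near PFN1 and TMSB4X. At VIM the highest log2 fold change of the 24 others within 2 Mb was 0.81, against 1.85 for its own island. That other island was 5400 bp wide and the one of VIM 600 bp, and narrow islands have higher folds in this list. At ACTB the highest of 32 others was 0.98, in an island of 1600 bp, above the 0.81 of the ACTB island of 3600 bp. The ACTB island was above the median of these others (0.40) but not the highest in fold, with a −log10 p of 20.9.

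The limit of 10 kb did not cut through a group of islands. The farthest island inside it was the narrower one of CFL1, 5.4 kb from the stated position with a log2 fold change of 0.90. The closest outside it was one of 4400 bp at VIM, 46.2 kb away with 0.61. At PFN1 and CFL1, RefSeq lists 3 other protein-coding genes within 10 kb of each (ENO3, RNF167 and SLC25A11, and EFEMP2, MUS81 and SNX32), and FSCN2 near ACTG1. To which gene their islands belong cannot be told apart from position at this resolution.

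The islands differed in width. Of the 9 islands, 4 were 1000 bp wide or less (TMSB4X, VIM, PFN1 and CFL1), where 0.491% of all islands were, and the median of the list was 4800 bp. An FDR below 0.001 was met by 8 of the 9, where 46.9% of all islands met it. The length covered by islands came close to the length of the gene at ACTB (3600 bp against 3454 bp in RefSeq) and CFL1 (3400 bp against 3508 bp). With the space between its islands, CFL1 spanned 4400 bp, more than the gene. The length covered was larger than the gene at ACTG1 (5200 bp against 2829 bp) and TMSB10 (2400 bp against 1016 bp). At TMSB4X the islands covered 1400 bp, and from the first base of one to the last of the other 2200 bp, against a gene of 2114 bp. At VIM and PFN1 they covered a small part, 600 bp against 9353 bp and 400 bp against 2879 bp. Lengths alone were compared, as the genes' ends in hg19 were not used.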

How the data were processed

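Chromatin immunoprecipitation sequencing of untreated THP-1 cells gave 3 NFATc2 IP libraries and as many of Input DNA. According to the submitters' notes, SICER 0.0.52 (epic2 in the paper) called islands in hg19 after trimming with Trimmomatic 0.36.5 and alignment with BWA 0.7.17.1. SAMtools 1.3.1 and ChIPseeker 1.18.0 are named too. The authors deposited 1 list of islands at FDR below 0.05 with 9 columns, in bins of 200 bp. In it the deposited log2 value is the fold change of IP over scaled input reads, the deposited score is the whole part of 100 times that value, and the deposited −log10 columns are the p-value and the FDR of the caller. Pooling removes the spread between libraries, so no test was made, and no spread is given.

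Starts are written counted from 1. The fold and p of an island fix its IP and input reads through the Poisson formula of the caller, at a scaling factor of 0.5618. Input read numbers were whole, to 0.02, in 32750 of 32760 islands and in all 9 used here. On 1986 islands simulated with this same formula, 99.9% were recovered. This checks the arithmetic and not whether the caller used the formula. The fewest IP reads in an island were 32, and the median was 148 IP and 198 input reads. Intervals are exact Clopper-Pearson intervals of the share of IP reads, which cover counting error only. The gene list, members and motifs were chosen with earlier results of these data known. All 8 genes of the list are named. Gene names, gene lengths and promoters are from RefSeq on GRCh38.p14. Computations used scipy 1.17.1 and numpy 2.4.6 in Python 3.11.15, tables pandas 2.3.3 and plots matplotlib 3.10.9.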

Additional observations from a re-analysis of the deposited data

How the results depend on the processing

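Of 31 alternatives, 25 left their result within the counting interval or within 1.5 times the count. The number of genes with an island was 7 in each window (5, 20 and 50 kb) and at FDR 0.01 and 0.001. The number of islands was 8 with 5 kb, 11 with 50 kb and 8 at the stricter FDRs, where the smaller TMSB4X island drops out. Of the nearest islands, 7 had a log2 fold change above 0.5, 1 above 1.5 and 1 a lower counting bound above 1, against 3 above 1. This follows from how many lie near 1. Using the island of lowest p, added after the data were seen, gave 4 above 1. Of all islands 1.58% were above 1, and their upper quartile was 0.53, so a fold above 0.5 is common in the list. Shares of all islands at the other limits were not computed, and nothing is read from these counts. The median percentile of fold was 98.4 among all islands and 42.9 among those of 1000 bp or less, which have a median log2 fold change of 1.07. The median number of other islands was 2 within 1 Mb and 1 within 0.5 Mb. GGAAAA was in 1 of 6 promoters, where GGAAA was in 5. The share of all promoters with GGAAAA was not computed, so nothing is read from that count. No paired analysis was possible because values of single libraries are not in a pooled list, and so no library could be left out either. Depth limits single folds: the widest counting interval was that of the larger TMSB4X island, 1.58 to 3.08.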
